A study of Mus musculus with 31 samples.

Results

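The genes described here are 8 mouse genes of tissue exit and homing, S1pr1, S1pr5, Klf2, Cxcr3, Cxcr4, Cxcr6, Ccr2 and Rgs1, taken by name from the 27179 genes of the count table. RNA was measured in 31 libraries of natural killer (NK) cells, cytotoxic lymphocytes of the innate immune system, which were sorted ex vivo from mouse organs that the labels do not name. The cells were wild type (WT), lacked the type II receptor for transforming growth factor beta (TGFBRII KO; the label is TGFBRII_KO) or lacked CIS (CIS KO; the label is CIS_KO), a suppressor of cytokine signalling encoded by Cish. Each genotype was measured unstimulated, after 4 h and after 24 h with the cytokine TGFB1 (labels 4h_TGFB1 and 24h_TGFB1). There were 4, 2 and 4 WT libraries in these 3 conditions, 3, 3 and 3 TGFBRII KO libraries and 4, 4 and 4 CIS KO libraries. The labels name no strain, age or sex, and do not say how each gene was knocked out. The labels also give no time in culture for the unstimulated cells, so within a genotype TGFB1 and time in culture cannot be told apart. The labels number biological replicates without saying whether they came from separate animals, and p-values therefore measure the spread between these libraries.

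NK cells leave tissues along gradients of sphingosine 1-phosphate (S1P), which they sense through S1pr1 and S1pr5, and the transcription factor Klf2 drives S1pr1 in lymphocytes. Chemokine receptors guide the cells toward their ligands or hold them in place. Cxcr4 binds Cxcl12 of bone marrow, Cxcr3 binds Cxcl9 and Cxcl10 of inflamed tissue, Cxcr6 binds Cxcl16 of liver sinusoids and Ccr2 binds Ccl2. Rgs1 speeds the shut-off of the G proteins that all these receptors use, and is known as a marker of lymphocytes that stay in tissue.

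The start sites of the members differed in their content of the dinucleotide CG. RefSeq promoter windows of the GRCm38.p6 build were found for 6 of the 8 members (Cxcr4, Klf2, S1pr5, Cxcr6, Ccr2 and Cxcr3), and the 250 bases before the start were read. The table holds 1 start for Ccr2 that lies inside the annotated gene, so its window (chr9:124101933-124102182) overlaps the gene. Shown are Cxcr4, whose counts were higher after TGFB1, Cxcr3, whose counts were lower, and Klf2, the transcription factor of the set. Capitals mark each CG, and each sequence runs 5′ to 3′ on the strand of its gene.
Cxcr4: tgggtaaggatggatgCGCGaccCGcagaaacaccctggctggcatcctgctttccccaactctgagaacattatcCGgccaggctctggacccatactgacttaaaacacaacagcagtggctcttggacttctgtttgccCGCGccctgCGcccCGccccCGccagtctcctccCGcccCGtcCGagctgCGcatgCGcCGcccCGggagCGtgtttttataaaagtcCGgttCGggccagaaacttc
Klf2: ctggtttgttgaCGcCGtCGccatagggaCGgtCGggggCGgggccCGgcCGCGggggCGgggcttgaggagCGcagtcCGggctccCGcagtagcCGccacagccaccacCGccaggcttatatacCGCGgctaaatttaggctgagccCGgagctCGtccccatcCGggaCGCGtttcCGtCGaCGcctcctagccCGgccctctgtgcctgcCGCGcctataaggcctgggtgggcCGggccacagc
Cxcr3: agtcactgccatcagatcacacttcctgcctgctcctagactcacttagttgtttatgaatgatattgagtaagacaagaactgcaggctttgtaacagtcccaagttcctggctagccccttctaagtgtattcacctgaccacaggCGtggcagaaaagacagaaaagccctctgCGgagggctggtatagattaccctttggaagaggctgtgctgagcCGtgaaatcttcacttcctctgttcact
The Cxcr4 window (chr1:128592300-128592549, minus strand) held 19 CG, the Klf2 window (chr8:72318812-72319061, plus strand) 29 and the Cxcr3 window (chrX:101734148-101734397, minus strand) 3. The windows of S1pr5, Cxcr6 and Ccr2 held 22, 3 and 1. The median of the 32817 windows of this length was 6, and 19.7% of them held as many as Cxcr4 or more. The short SMAD motif CAGAC, searched on both strands, was found in Cxcr6 alone among the 6 windows, and it was also in 42.2% of all windows. The KLF box CACCC was in the windows of Cxcr4 and Klf2 (1 match each) and S1pr5 (2 matches), against 52% of all windows. The SMAD GC site GGCGCC (9.59% of all windows), the T-box TCACACCT (1.12%) and the FOXO site TGTTTAC (3.16%) had no match in the 6 windows. No binding or chromatin was measured, and a match is a description of letters.

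Libraries held 297561 to 1403005 counts, with a median of 736193, and the shallowest was replicate 1 of WT at 4 h. Cish was at 129.9 to 289 CPM (counts scaled to 1e6 per TMM-adjusted library) in the WT libraries and at 18.0 to 56.1 CPM in the CIS KO libraries. Tgfbr2 was at 212.8 ± 26.6 CPM (SD, n = 4) in unstimulated WT and 229.7 ± 8.18 CPM (SD, n = 3) in unstimulated TGFBRII KO. A count over the whole gene does not check a deletion of part of it. Of 10 NK markers, 9 passed the count filter and their summed level was 2761 to 6306 CPM, while Itga2 had 0 to 15 counts. The 5 B cell, 5 neutrophil and 6 erythroid markers (5 of the 6 in the table) summed to at most 4.99, 3.12 and 2.06 CPM in any library. The 8 T cell markers summed to 181.9 to 319 CPM, with Cd3g at 31 to 189 counts, Cd3d at 25 to 136, Trac at 4 to 48 and Cd3e at 1 to 30, and with Cd4, Cd8a and Cd8b1 at 0 to 2. The 9 monocyte and dendritic cell markers summed to 219.2 to 368 CPM, mostly Itgax and H2-Ab1, which NK cells can also express, with Flt3 at 0. Of 5 ILC1 markers 4 were in the table (Itga1, Tnfsf10 and Cd200r1, and Il7r at 0 to 4 counts), and their sum differed between conditions in each genotype. It was 413.2 to 499.6, 488.5 to 527.4 and 599.5 to 699.0 CPM in WT unstimulated, at 4 h and at 24 h, 312.2 to 400.9, 531.4 to 597.0 and 564.5 to 673.6 CPM in CIS KO, and 374.8 to 413.1, 277.9 to 305.2 and 339.2 to 378.6 CPM in TGFBRII KO. Itga1 alone ranged from 40.95 to 436.2 CPM over all libraries. The part of the ILC1 markers in the changes of the members was not tested. The 6 ILC2 and ILC3 markers summed to 126.2 to 301 CPM and the 6 stromal and epithelial markers to 261.5 to 487 CPM (Pecam1 and Epcam, with Col1a2 and Krt8 at 0). Xist, the RNA of the silenced X chromosome, was at 91.1 to 222 CPM in WT, 12.6 to 131 CPM in TGFBRII KO and 0 to 5.22 CPM in CIS KO libraries. Y-linked genes summed to 1.38 to 124.1, 187.1 to 451 and 391.7 to 558 CPM, so sex and genotype cannot be told apart. Cxcr3 is X-linked.

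Of the 8 members, 6 passed the filter on low counts that left 10275 genes, and a gene was called where its adjusted p was under 0.05. S1pr1 and S1pr5 did not pass. Compared per length of annotated exon in unstimulated WT cells, Cxcr6 stood at 109.5 CPM per kb, Ccr2 at 95.8, Cxcr3 at 34.8 and Rgs1 at 16.9. Klf2 was lower at 4.75 CPM per kb and Cxcr4 at 2.19, while S1pr5 was at 0.728 and S1pr1 at 0.285. The lengths join the exons of all annotated transcripts, and that of Rgs1 (6947 bases) exceeds its RefSeq span. The order of Cxcr6 and Ccr2, and that of Cxcr3 and Rgs1, therefore depends on the length used. Without division by length, Ccr2 was at 647.3 CPM, Cxcr6 at 211.5, Rgs1 at 117.1 and Cxcr3 at 60.15. By either measure a homing receptor of liver and a monocyte-type chemokine receptor had the highest values, and both exit receptors the lowest.

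**Figure D1:**
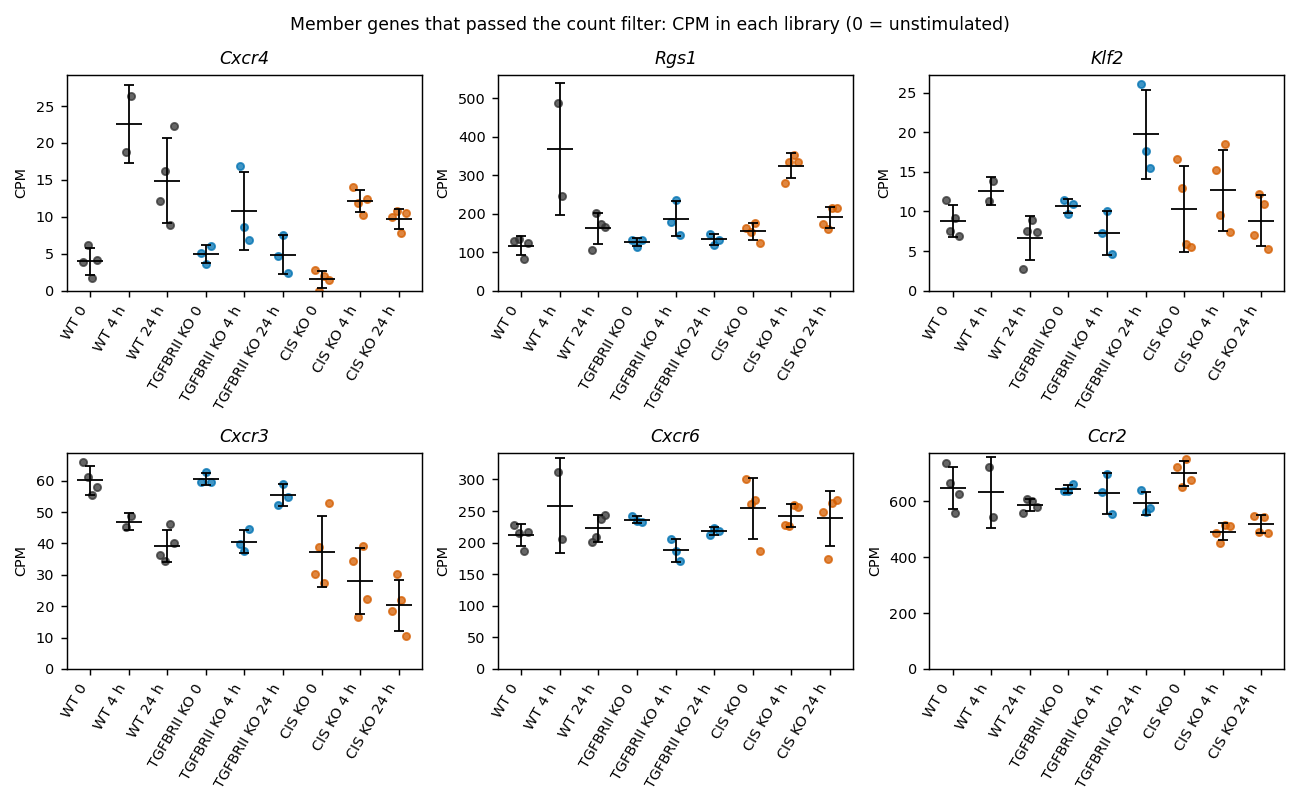
CPM of the 6 members that passed the count filter (vertical axis, from 0) in each library of the 9 groups (horizontal axis; 0 stands for unstimulated). Points are libraries, long ticks the group means and bars the SD. Cxcr4 lies between 1.68 and 6.24 CPM in unstimulated WT and at 18.8 and 26.3 CPM after 4 h.

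Both exit receptors were close to the detection limit in all 9 groups. S1pr1 (Entrez gene 13609, chr3:115710433-115715055), the main receptor by which lymphocytes sense S1P in blood and lymph, had 15 counts in all, 0 to 2 per library, in 13 of 31 libraries. In unstimulated WT its 4 libraries had 0, 1, 1 and 1 counts. In CIS KO at 24 h all 4 had 0, with a 95% exact Poisson interval of 0 to 1.08 CPM. Pooled over conditions, S1pr1 was at 0.923 CPM in WT, 0.820 in TGFBRII KO and 0.262 in CIS KO, with 95% exact Poisson intervals of 0.371 to 1.90, 0.301 to 1.78 and 0.0317 to 0.947. These intervals cover counting error only, and they overlap. No change of S1pr1 was detectable at this depth.

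S1pr5 (Entrez gene 94226, chr9:21242917-21248443), the S1P receptor of mature NK cells, had 35 counts in all, 0 to 6 per library, in 19 of 31 libraries. The unstimulated WT libraries had 3, 1, 1 and 1 counts and the unstimulated TGFBRII KO libraries 2, 3 and 2. In CIS KO at 4 h the 4 libraries had 0 counts, with a 95% exact Poisson interval of 0 to 1.76 CPM. The pooled level was 1.32 CPM in WT (95% interval 0.632 to 2.42), 2.60 in TGFBRII KO (1.56 to 4.05) and 0.786 in CIS KO (0.289 to 1.71). One library, replicate 3 of TGFBRII KO at 4 h, gave 6 of the 19 TGFBRII KO counts, and its 2 fellow libraries had none. An exon of S1pr5 overlaps an exon of Gm48303 on the other strand, and the strand setting of the counting is not given in the sources used here.

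Klf2 (Entrez gene 16598, chr8:72319062-72321654) was measured with 2 to 22 counts per library. In unstimulated WT its libraries were at 11.4, 7.49, 9.22 and 6.91 CPM, after 4 h at 11.3 and 13.8 CPM, and after 24 h at 2.69, 7.55, 8.94 and 7.42 CPM. Unstimulated TGFBRII KO libraries were at 11.4, 9.64 and 10.9 CPM, those at 4 h at 7.23, 10.1 and 4.57 CPM, and those at 24 h at 26.1, 17.6 and 15.5 CPM. The 3 TGFBRII KO libraries at 24 h were above every other WT and TGFBRII KO library, whereas the 12 CIS KO libraries spread from 5.22 to 18.5 CPM without order. The response of TGFBRII KO at 24 h was a log2 fold change of 0.88 ± 0.37 (SE), with an adjusted p of 0.566. Set against WT at 24 h, a comparison added after the values were seen, Klf2 was higher in TGFBRII KO by 1.55 ± 0.37 (log2, SE; adjusted p = 0.00196), where 21.6% of all genes tested were called in either direction. With 1 library left out at a time this adjusted p ranged from 0.00249 to 0.0318. The 24 h responses of both genotypes differed by 1.28 ± 0.54 (log2, SE), which was not called (adjusted p = 0.141).

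Cxcr4 rose after TGFB1 in WT and CIS KO cells. Cxcr4 (Entrez gene 12767, chr1:128588199-128592299) retains cells in bone marrow through Cxcl12. In WT the unstimulated libraries were at 3.81, 6.24, 1.68 and 4.14 CPM, the 4 h libraries at 18.8 and 26.3 CPM and the 24 h libraries at 12.1, 16.2, 8.94 and 22.3 CPM. Both treated groups lay wholly above the unstimulated one. The log2 fold change in WT was 2.62 ± 0.47 (SE; adjusted p = 1.59e-04) at 4 h and 1.94 ± 0.40 (SE; adjusted p = 3.94e-04) at 24 h. Without replicate 4 of WT at 4 h the first was 2.27 with an adjusted p of 0.0679. In CIS KO the unstimulated libraries were at 2.76, 0, 1.96 and 1.39 CPM, which is 3 counts in all. At 4 h they were at 14.01, 11.9, 10.3 and 12.4 CPM and at 24 h at 9.91, 10.8, 7.80 and 10.4 CPM, again without overlap. The CIS KO fold was 7.90 (95% interval 3.34 to 18.7; adjusted p = 5.93e-04) at 4 h and 6.37 (2.73 to 14.8; adjusted p = 0.00127) at 24 h.

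Without the TGF-beta receptor, the Cxcr4 response was not called. TGFBRII KO libraries were at 5.07, 3.62 and 6.08 CPM unstimulated, at 16.9, 8.64 and 6.86 CPM after 4 h and at 4.75, 7.54 and 2.38 CPM after 24 h. The 4 h libraries lay above the unstimulated ones (log2 fold change 1.11 ± 0.47, SE; adjusted p = 0.148), and the 24 h libraries overlapped them (-0.02 ± 0.54, SE; adjusted p = 1.00). The response difference to WT was -1.50 ± 0.69 (log2, SE; adjusted p = 0.194) at 4 h and -1.96 ± 0.69 (adjusted p = 0.0654) at 24 h. The latter passed the threshold without replicate 2 of unstimulated WT (-2.28; adjusted p = 0.0421), replicate 3 of WT at 24 h (-2.13; 0.0442) or replicate 2 of TGFBRII KO at 24 h (-2.39; 0.0430). Compared directly at 24 h, Cxcr4 was lower in TGFBRII KO than in WT (4.89 ± 2.58, SD, n = 3, against 14.9 ± 5.75 CPM, SD, n = 4; log2 -1.59 ± 0.42, SE; adjusted p = 0.00541). Without replicate 3 of TGFBRII KO at 24 h this was -1.27 with an adjusted p of 0.0521. At 4 h the direct difference was -1.13 ± 0.43 (SE; adjusted p = 0.0848), and -1.61 (0.0275) without replicate 1 of TGFBRII KO at 4 h. In CIS KO the response did not differ from that of WT beyond its error, with a difference of 0.36 ± 0.74 (95% interval -1.13 to 1.86) at 4 h and 0.73 ± 0.77 (-0.85 to 2.30) at 24 h.

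Rgs1 rose at 4 h and was lower again at 24 h. Rgs1 (Entrez gene 50778, chr1:144244669-144249104), the G protein brake, was at 128.4, 133.6, 82.2 and 124.3 CPM in unstimulated WT, at 488 and 246.8 CPM at 4 h and at 104.7, 202.9, 174.4 and 164.7 CPM at 24 h. In CIS KO it was at 162.9, 152.1, 176.7 and 123.5 CPM unstimulated, at 278.9, 335.2, 352.0 and 333.6 CPM at 4 h and at 174.1, 159.1, 213.6 and 214.1 CPM at 24 h. In both genotypes the 4 h libraries did not overlap those of either other condition. The log2 fold change at 4 h was 1.56 ± 0.22 in WT (SE; adjusted p = 5.5e-06) and 1.09 ± 0.19 in CIS KO (SE; adjusted p = 7.1e-05). From 4 h to 24 h it fell by 1.06 ± 0.22 in WT (SE; adjusted p = 0.00172) and by 0.79 ± 0.18 in CIS KO (SE; adjusted p = 0.00251). Replicate 1 of WT at 4 h was both the higher library and the shallowest. Without it, the rise in WT was 1.09 and still called, and the later fall was -0.61 with an adjusted p of 0.154.

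In TGFBRII KO cells Rgs1 was at 131.7, 113.3 and 131.2 CPM unstimulated, at 179.5, 234.7 and 145.2 CPM at 4 h and at 147.2, 119.4 and 132.2 CPM at 24 h. The 4 h libraries lay above the unstimulated ones, with a log2 fold change of 0.56 ± 0.21 (SE; adjusted p = 0.102). That gain was smaller than in WT by 1.00 ± 0.31 on the log2 scale (SE; adjusted p = 0.0405). This difference of responses depended on single libraries: leaving out any of 7 of 12 libraries ended the call. These were replicate 3 of unstimulated WT (-0.84; adjusted p = 0.0985), replicate 1 of WT at 4 h (-0.54; 0.387), replicates 1, 2 and 3 of unstimulated TGFBRII KO (-0.96, -1.06 and -0.96; 0.0900, 0.0517 and 0.0836) and replicates 1 and 3 of TGFBRII KO at 4 h (-0.97 and -0.84; 0.0727 and 0.129). Compared directly at 4 h, Rgs1 was lower in TGFBRII KO than in WT by 0.88 ± 0.23 (log2, SE; adjusted p = 0.00796), and this was -0.41 (adjusted p = 0.397) without replicate 1 of WT at 4 h and -0.72 (0.0582) without replicate 3 of TGFBRII KO at 4 h. Rgs1 counts were less than proportional to depth: within groups they rose by 0.602 on the log2 scale per doubling of the total count. With the total count as a covariate the response difference was -0.65 (adjusted p = 0.0934).

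At 24 h the Rgs1 difference from unstimulated cells was 0.50 ± 0.19 in WT (log2, SE; adjusted p = 0.0572), a value that passed the threshold without replicate 1 of WT at 24 h (0.66; adjusted p = 0.00856). In CIS KO the 24 h difference was 0.30 ± 0.19 (SE; adjusted p = 0.259), and 0.59 (adjusted p = 0.00818) with the total count as a covariate.

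Cxcr3 was lower after 24 h in WT and CIS KO cells. Cxcr3 (Entrez gene 12766, chrX:101731535-101734147) guides effector lymphocytes to interferon-induced chemokines. Its WT libraries were at 66.1, 61.2, 55.3 and 58.0 CPM unstimulated, at 45.1 and 48.9 CPM at 4 h and at 36.3, 34.5, 46.2 and 40.1 CPM at 24 h. All 6 treated WT libraries were below the 4 unstimulated ones. The log2 change in WT was -0.33 ± 0.25 (SE; adjusted p = 0.423) at 4 h and -0.62 ± 0.19 (SE; adjusted p = 0.0137) at 24 h. Without replicate 2 of WT at 24 h the second was -0.55 with an adjusted p of 0.0541.

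In CIS KO, Cxcr3 was at 30.4, 39.0, 27.5 and 52.7 CPM unstimulated, at 34.4, 16.6, 39.1 and 22.2 CPM at 4 h and at 18.4, 30.3, 21.8 and 10.4 CPM at 24 h. The groups overlapped, and the 24 h change was -0.80 ± 0.24 (log2, SE; adjusted p = 0.0123). It was -0.54 (adjusted p = 0.160) without replicate 4 of unstimulated CIS KO. Every unstimulated CIS KO library was below every unstimulated WT library (log2 difference -0.62 ± 0.20, SE; adjusted p = 0.0546). Without replicate 4 of unstimulated CIS KO that difference was -0.88 (adjusted p = 0.0171). These CIS KO libraries were also the shallower, at 392266 to 711659 counts against 712432 to 1135104 in WT, and Cxcr3 rose within groups by 1.55 on the log2 scale per doubling of the total count. With the total count as a covariate the unstimulated difference was -0.38 (adjusted p = 0.498). At 24 h CIS KO was lower than WT (log2 difference -0.80 ± 0.22, SE; adjusted p = 0.0349), a call that ended without any of 6 of the 8 libraries, at -0.83 to -0.64 and adjusted p of 0.0507 to 0.119. Those were replicates 1, 3 and 4 of WT at 24 h and replicates 1, 3 and 4 of CIS KO at 24 h. Xist and the Y-linked genes, which separate the CIS KO from the WT libraries, move with this difference, and their part in it was not tested.

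TGFBRII KO libraries had Cxcr3 at 59.5, 62.7 and 59.5 CPM unstimulated, at 39.7, 37.4 and 44.6 CPM at 4 h and at 52.2, 59.0 and 54.8 CPM at 24 h. The 4 h group lay wholly below both others (log2 difference to unstimulated -0.57 ± 0.21, SE; adjusted p = 0.0927). At 24 h the difference was -0.13 ± 0.20 (95% interval -0.54 to 0.27). The response difference to WT at 24 h was 0.49 ± 0.27 (SE; adjusted p = 0.302), so a difference between the genotypes in this response was not shown.

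Ccr2 fell after TGFB1 in CIS KO cells. Ccr2 (Entrez gene 12772, chr9:124101918-124109140), a receptor that takes monocytes and some NK cells out of bone marrow and into inflamed tissue, was at 723.6, 653.0, 750.1 and 677.0 CPM in unstimulated CIS KO. At 4 h it was at 486.5, 451.7, 516.7 and 511.6 CPM and at 24 h at 546.3, 492.2, 545.7 and 487.5 CPM, with no overlap with the unstimulated libraries at either time. The log2 changes were -0.51 ± 0.10 (SE; adjusted p = 4.71e-04) and -0.44 ± 0.10 (SE; adjusted p = 0.00152), and every version with 1 library left out kept both calls. In WT the levels were 738.3, 666.7, 558.3 and 625.7 CPM unstimulated, 721.5 and 542.4 CPM at 4 h and 559.9, 607.5, 600.6 and 580.2 CPM at 24 h. These overlapped, with changes of -0.06 ± 0.12 and -0.14 ± 0.10 (log2, SE). TGFBRII KO means were 645.6 ± 14.5, 628.9 ± 73.4 and 592.5 ± 41.8 CPM (SD, n = 3 each). The CIS KO response minus the WT response was -0.45 ± 0.16 at 4 h (log2, SE; adjusted p = 0.569) and -0.30 ± 0.14 at 24 h (adjusted p = 0.324), so the difference between genotypes did not pass. The 9 monocyte and dendritic cell markers, 3 of which passed the filter, summed to 219.2 to 290.0 CPM in unstimulated CIS KO, 221.6 to 296.6 CPM at 4 h and 223.9 to 289.0 CPM at 24 h. Over all libraries Itgax had 53 to 222 counts, H2-Ab1 13 to 117, Cd14 5 to 31 and Ly6c1 1 to 9, while Lyz2, Csf1r, Adgre1 and Fcgr1 had 0 to 2 and Flt3 had 0. Their part in the Ccr2 changes was not tested. In these bulk samples fewer cells that express a gene and less RNA per cell cannot be told apart.

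Cxcr6 was not called in any of the 18 comparisons. Cxcr6 (Entrez gene 80901, chr9:123806477-123811754), the receptor that keeps NK cells in liver sinusoids, ranged from 170.3 to 311.9 CPM over the 31 libraries. Its group means ran from 187.8 ± 17.8 CPM in TGFBRII KO at 4 h (SD, n = 3) to 258.7 ± 75.3 CPM in WT at 4 h (SD, n = 2). In WT the 24 h change was 0.08 ± 0.13 (log2, 95% interval -0.19 to 0.34), and in CIS KO -0.10 ± 0.13 (-0.37 to 0.17). In TGFBRII KO the 4 h libraries (205.9, 187.2 and 170.3 CPM) were below the unstimulated ones (241.9, 235.0 and 232.1 CPM; log2 difference -0.33 ± 0.15, SE; adjusted p = 0.180). With all libraries, the 4 h response difference between TGFBRII KO and WT was -0.55 (adjusted p = 0.140) and the direct difference at 4 h -0.39 (0.177). Without replicate 4 of WT at 4 h these were -0.90 and -0.73. Those values rest on 1 WT library at 4 h, replicate 1, which was the shallowest of all and had 311.9 CPM against 205.4 in replicate 4. Within groups Cxcr6 counts rose by 0.662 on the log2 scale per doubling of the total count, less than in proportion. Cxcr6 lies within Fyco1, a gene on the other strand, without overlap of exons.

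**Figure D2:**
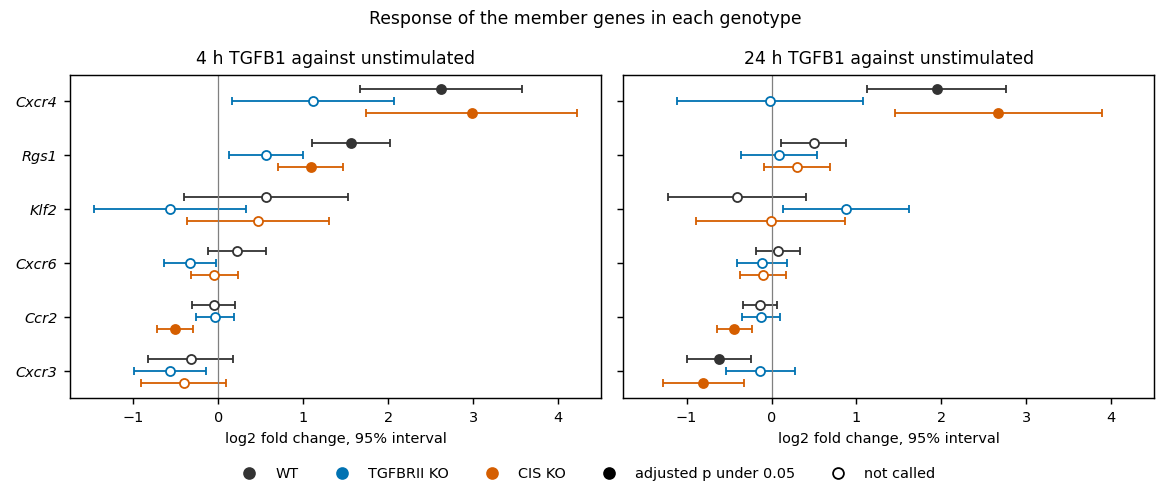
Log2 fold change (horizontal axis) with its 95% interval for the 6 tested members in each genotype at 4 h and 24 h of TGFB1 against unstimulated cells. Filled points have an adjusted p under 0.05. Cxcr4 at 24 h is at 1.94 in WT and 2.67 in CIS KO and at -0.02 in TGFBRII KO.

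The counts of called members were set beside those of all 10275 genes tested. Members and lists were chosen with earlier results of these data known. The shares given here and for the lists below are therefore a description, not a test. In WT at 4 h, 2 of the 6 tested members rose (Cxcr4 and Rgs1) and 0 fell, where 6.9% of all genes rose and 5.03% fell. With library size alone in place of TMM scaling, 527 genes rose and 751 fell, against 709 and 517, while both member calls stayed. That scaling moved the median of all genes from -0.02 to -0.11 in this comparison. At 24 h in WT, 1 rose (Cxcr4) and 1 fell (Cxcr3), beside 9.63% and 11.5% of all genes. In CIS KO at 4 h, 2 rose (Cxcr4 and Rgs1; 7.76% of all genes rose) and 1 fell (Ccr2; 6.3% fell). In CIS KO at 24 h, 1 rose (Cxcr4; 12.3% rose) and 2 fell (Ccr2 and Cxcr3; 11.7% fell). In TGFBRII KO, 0 of 6 were called at 4 h, where 8.02% of all genes were, and 0 at 24 h, where 0.0195% were. With unadjusted p under 0.05, 730 genes passed in TGFBRII KO at 24 h and 2222 at 4 h. DESeq2 gave an adjusted p for all 6 members and called 0 at both times. Other settings called members at 4 h. With the total count as a covariate these were Rgs1 (0.54; adjusted p = 0.0206), Cxcr3 (-0.57; 0.0372) and Cxcr6 (-0.34; 0.00674). With only the groups compared in the fit they were the same 3 (adjusted p of 0.0170, 0.0270 and 0.0221), and without the count filter Rgs1 alone (0.55; 0.00588). Between 4 h and 24 h, Rgs1 was the called member in WT (7.57% of all genes) and in CIS KO (15.4%).

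In unstimulated cells, 0 of 6 members differed by edgeR between TGFBRII KO and WT (0.146% of all genes were called, and 929 genes had an unadjusted p under 0.05) or between CIS KO and WT (6.15%; 2766 genes). DESeq2 called 0 of 6 members in the first and 0 of the 3 (Cxcr6, Ccr2 and Rgs1) for which it gave an adjusted p in the second. In the second, edgeR called Cxcr3 with library size alone (-0.69; adjusted p = 0.0447), no count filter (-0.63; 0.0384) or only the groups compared (-0.60; 0.0480). For the difference of responses, 1 member was called between TGFBRII KO and WT at 4 h (Rgs1; 7.57% of all genes) and 0 at 24 h (10.8%). Between CIS KO and WT it was 0 at 4 h, where 0% of all genes were called by edgeR or DESeq2 and 874 had an unadjusted p under 0.05 in edgeR, and 0 at 24 h (1.33%). The direct comparisons under TGFB1 were added after the values were seen. There, 1 of 6 members was called between TGFBRII KO and WT at 4 h (Rgs1; 11.8% of all genes) and 2 at 24 h (Klf2 and Cxcr4; 21.6%). For CIS KO against WT it was 0 at 4 h (0.273%; 895 genes at an unadjusted p under 0.05) and 1 at 24 h (Cxcr3; 3.27%). Comparisons with the same WT or unstimulated libraries share them and are not independent.

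The order of the 9 group means differed between members. For Rgs1 the means of WT and CIS KO at 4 h, 367.6 ± 171 (SD, n = 2) and 324.9 ± 31.8 CPM (SD, n = 4), came first, and the libraries of CIS KO at 4 h did not overlap those of the next group, CIS KO at 24 h (190.2 ± 28.0 CPM, SD, n = 4). For Cxcr4 the 5 highest means were WT at 4 h and 24 h, CIS KO at 4 h, TGFBRII KO at 4 h and CIS KO at 24 h. The libraries of CIS KO at 24 h did not overlap those of the next group, TGFBRII KO unstimulated (4.92 ± 1.24 CPM, SD, n = 3). The other neighbours in the order of Cxcr4 overlapped. Cxcr3 ran from 60.6 ± 1.82 CPM in unstimulated TGFBRII KO (SD, n = 3) to 20.2 ± 8.24 CPM in CIS KO at 24 h (SD, n = 4), and the 3 CIS KO groups held the lowest places. Ccr2 ran from 700.9 ± 44.0 CPM in unstimulated CIS KO to 491.6 ± 29.7 CPM in CIS KO at 4 h (SD, n = 4 each). For Cxcr6 and Klf2 the libraries of all neighbouring groups overlapped.

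Over the 9 group means of log2 CPM, the genes with the highest Pearson correlation to each member were named as a description. For Cxcr3 it was Rasgrp2 (r = 0.960), an activator of the small G protein Rap1 that acts in integrin adhesion. For Rgs1 it was Mettl14 (0.976), for Cxcr4 Mllt6 (0.981), for Cxcr6 Pik3ip1 (0.959) and for Klf2 Snx20 (0.886). The next for Rgs1 were Nop53 (0.966) and Map2k3 (0.965), for Cxcr4 Rbm22 (0.973) and Pcbp2 (0.970), for Cxcr3 Usp45 (0.959) and I730030J21Rik (0.939), for Cxcr6 Tmem179b (0.943) and Gdi2 (0.929) and for Klf2 Oit3 (0.872) and Mboat2 (0.867). Ints5 (0.912) and Pdcd10 (0.905) were among the 3 highest for Ccr2. Between members, Rgs1 and Cxcr4 had a correlation of 0.744, and Cxcr3 and Ccr2 of 0.686. These 9 points share libraries and depth.

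S1pr2 and S1pr4 were measured well above S1pr1 and S1pr5 in every group. Per kb of exon, S1pr3 was below S1pr5 in unstimulated WT (0.524 ± 0.238 against 0.728 ± 0.539 CPM per kb, SD, n = 4) and in every TGFBRII KO group. Without division by length the order was reversed in unstimulated WT (2.34 against 1.82 CPM) and in TGFBRII KO at 4 h (2.57 against 2.29 CPM). Both genes had at most 6 counts per library in these groups, and their order was not resolved. After TGFB1, S1pr3 rose in WT at 24 h and in CIS KO at both times, and S1pr2 rose in CIS KO at 4 h. S1pr4, a receptor of haematopoietic cells, was at 58.6 ± 5.75 CPM per kb of exon in unstimulated WT (SD, n = 4), and S1pr2, which opposes migration, at 8.13 ± 0.74. S1pr3 was at 2.34 ± 1.06 CPM in unstimulated WT, 8.77 ± 1.77 CPM at 4 h (SD, n = 2) and 46.1 ± 4.50 CPM at 24 h (SD, n = 4), without overlap, a log2 fold change of 4.23 ± 0.40 at 24 h (SE; adjusted p = 3.68e-10). In CIS KO it went from 3.61 ± 1.59 to 27.4 ± 11.4 and 45.5 ± 12.8 CPM (SD, n = 4 each), with log2 changes of 2.85 ± 0.47 and 3.54 ± 0.42 (SE; adjusted p = 3.54e-05 and 7.54e-08). In TGFBRII KO it was at 1.23 ± 1.21, 2.57 ± 2.42 and 1.58 ± 1.37 CPM (SD, n = 3 each), and at 24 h it was lower than in WT (log2 difference -4.70 ± 0.48, SE; adjusted p = 1.92e-09). The response difference at 24 h, -3.88 ± 1.37 (SE), was not called (adjusted p = 0.0642), and neither was the WT change at 4 h (1.95 ± 0.70, SE; adjusted p = 0.0652). S1pr2 went in CIS KO from 64.3 ± 4.04 to 88.2 ± 6.79 CPM at 4 h, without overlap, and was at 62.0 ± 8.09 CPM at 24 h (SD, n = 4 each). Its rise at 4 h was 0.45 ± 0.14 (log2, SE; adjusted p = 0.0422). That call was lost with DESeq2 (adjusted p = 0.154), library size alone (0.0764), no count filter (0.0929) and without any of 6 of the 8 libraries, namely replicates 1, 2 and 4 of unstimulated CIS KO (0.0675, 0.0580 and 0.140) and replicates 1, 2 and 3 of CIS KO at 4 h (0.0616, 0.107 and 0.0721). S1pr4 fell by 0.41 ± 0.12 in WT at 24 h (adjusted p = 0.00997), a call lost without replicate 4 of WT at 24 h (-0.33; 0.0538). It was also lower in CIS KO at 24 h, where the libraries overlapped (log2 -0.41 ± 0.13, SE; adjusted p = 0.0176). The TGFBRII KO response of S1pr4 minus the WT response at 24 h was 0.57 ± 0.17 (log2, SE; adjusted p = 0.0263). At 4 h the direction was the opposite. S1pr4 was then at 106 CPM in TGFBRII KO against 137.7 unstimulated, without overlap (log2 -0.38 ± 0.13, SE; adjusted p = 0.0808). The 4 h response difference to WT was -0.46 ± 0.20 (SE; adjusted p = 0.175), and the direct difference was -0.48 ± 0.16 (SE; adjusted p = 0.0479).

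**Figure D3:**
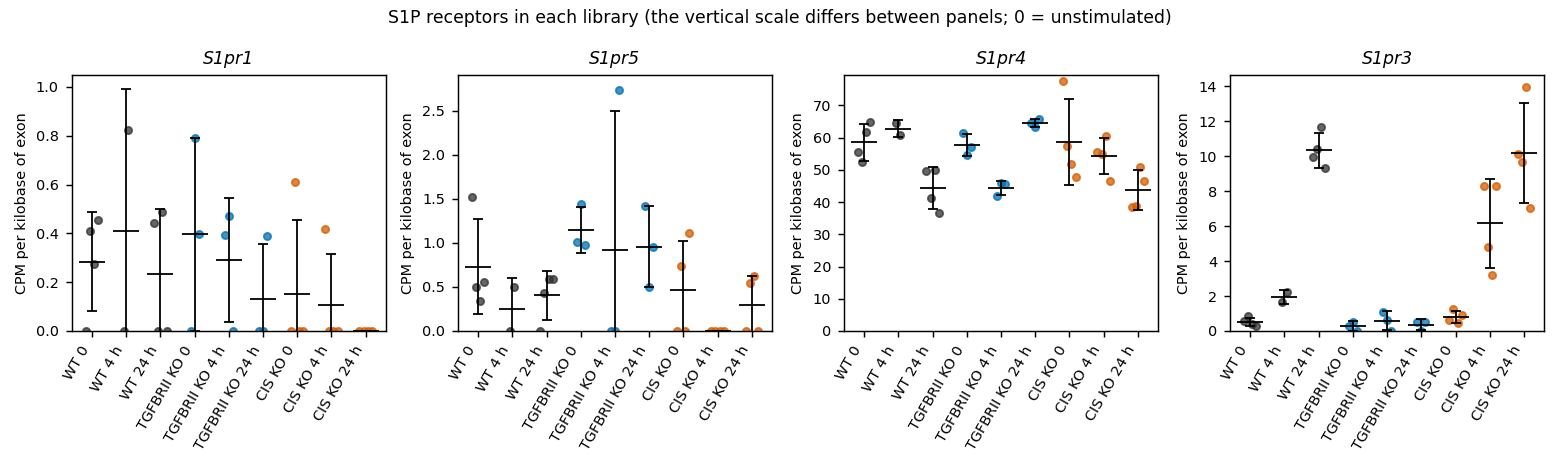
CPM per kilobase of exon (vertical axis, its scale differing between panels) of S1pr1, S1pr5, S1pr4 and S1pr3 in each library of the 9 groups (0 stands for unstimulated), with the group mean and SD. S1pr3 goes from 0.524 to 10.3 CPM per kb in WT between unstimulated cells and 24 h, while S1pr1 has a group mean of at most 0.411.

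Of the 12 other genes of the S1P axis, 8 passed the count filter. In WT at 24 h 3 rose (S1pr3, the S1P exporter gene Spns2 and Cd69) and 1 fell (S1pr4), where 9.63% of all genes rose and 11.5% fell, with a median log2 change of 0.13 beside 0.03 over all genes. In CIS KO 3 rose at 4 h (S1pr3, Spns2 and S1pr2; 7.76% of all genes), and at 24 h 1 rose and 1 fell (12.3% and 11.7%). Spns2 was at 17.1 and 40.8 CPM there unstimulated and at 4 h (log2 1.37 ± 0.33, SE; adjusted p = 0.00389). In TGFBRII KO 1 rose at 4 h, where 8.02% of all genes were called, and none was called at 24 h (0.0195%), when the list's median was 0.13. Cd69, which draws S1pr1 off the cell surface, went from 111.1 ± 6.07 (SD, n = 4) to 162.2 ± 9.74 CPM (SD, n = 2) at 4 h in WT (adjusted p = 0.00588). It was also higher at 4 h in TGFBRII KO, at 152.7 against 116.3 CPM (adjusted p = 0.0283). At 24 h in WT Cd69 was at 138.2 ± 21.3 CPM (SD, n = 4; adjusted p = 0.0225), a call lost without replicate 3 of unstimulated WT (0.27; 0.0998) or replicate 3 or 4 of WT at 24 h (0.29 and 0.22; 0.0562 and 0.169). The Spns2 call in WT (15.4 to 30.4 CPM; adjusted p = 0.0194) was lost without replicate 1 or 2 of unstimulated WT (0.87 and 0.78; 0.0502 and 0.0835). The Cd69 call in WT at 4 h was lost without either of its 4 h libraries (0.48 and 0.61; adjusted p = 0.0613 and 0.0805). The TGFBRII KO call was lost without replicate 3 of the unstimulated libraries (0.36; 0.0857) or replicate 1 or 2 at 4 h (0.37 and 0.33; 0.0769 and 0.132).

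Other brakes of G protein receptors were counted beside Rgs1. Of 14 RGS and desensitisation genes, 13 passed the filter. In WT 5 rose and 2 fell at 4 h, beside 6.9% and 5.03% of all genes, and 3 rose and 2 fell at 24 h, beside 9.63% and 11.5%. The median at 24 h was 0.13 beside 0.03 over all genes. CIS KO had 5 up and 2 down at 4 h (7.76% and 6.3% of all genes), and 2 up and 2 down at 24 h (12.3% and 11.7%). TGFBRII KO had 0 up and 2 down at 4 h (8.02% of all genes called) and none at 24 h (0.0195%). Rgs10, a brake that acts on the Gi class, rose in WT from 13.7 to 59.5 and 106.7 CPM, by 2.11 ± 0.29 and 2.92 ± 0.21 (log2, SE; adjusted p = 2.26e-06 and 3.72e-13). In TGFBRII KO at 24 h it was at 8.97 CPM, and its response differed from that of WT by -2.49 ± 0.53 (SE; adjusted p = 0.00116). Rgs2, a brake on the Gq class, rose in WT from 62.3 to 195.4 CPM at 4 h and was at 113.1 CPM at 24 h. Its 4 h response in TGFBRII KO was lower by 1.35 ± 0.24 on the log2 scale (SE; adjusted p = 3.01e-04). Rgs16 rose at 4 h in WT from 89.1 ± 21.2 CPM (SD, n = 4) to 161.6 and 326.9 CPM in the 2 libraries (log2 1.32 ± 0.24, SE; adjusted p = 1.86e-04), and the change was 0.88 without the higher of these, replicate 1, and 1.90 without replicate 4. In CIS KO it rose from 138.3 to 233.0 CPM (adjusted p = 0.00571). Grk5, a kinase that marks active receptors for removal, fell in WT from 63.7 to 23.8 and 15.9 CPM, by 1.38 ± 0.26 and 1.99 ± 0.19 (log2, SE). Its response at 24 h differed by 2.11 ± 0.25 in TGFBRII KO (SE; adjusted p = 1.96e-07).

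Of 22 other chemoattractant receptors, 9 passed the filter, and Cx3cr1 and Ccr7, which mark circulating and lymph node homing cells, had at most 10 and 2 counts in any library. In WT 3 rose and 1 fell at 4 h (6.9% and 5.03% of all genes), and 2 rose and 3 fell at 24 h (9.63% and 11.5%), with a median of -0.15 at 24 h beside 0.03 over all genes. CIS KO had 2 up and 1 down at 4 h (7.76% and 6.3% of all genes) and 2 up and 3 down at 24 h (12.3% and 11.7%). TGFBRII KO had none called at either time (8.02% and 0.0195% of all genes). Cmklr1, the chemerin receptor, rose in WT from 26.6 to 65.8 and 81.9 CPM (log2 1.25 ± 0.29 and 1.63 ± 0.21, SE; adjusted p = 0.00339 and 2.00e-07) and in CIS KO from 13.4 to 49.6 and 53.5 CPM. Its 24 h response was lower in TGFBRII KO by 1.53 ± 0.36 on the log2 scale (SE; adjusted p = 0.00308). Ltb4r1, the leukotriene B4 receptor, fell at 24 h in WT from 87.1 to 58.2 CPM (adjusted p = 0.00361) and in CIS KO from 116.8 to 57.5 CPM (adjusted p = 2.72e-06). Ccrl2, a chemerin-binding receptor without known signalling, fell at 24 h in WT from 36.5 to 19.7 CPM (adjusted p = 0.00275). Gpr183, the oxysterol receptor, was at 3.00 CPM in unstimulated WT and 18.2 CPM at 4 h (adjusted p = 0.00886), a call lost without replicate 4 of WT at 4 h (2.21; 0.243).

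Of 11 adhesion and rolling genes, 10 passed the filter. At 24 h in WT 2 rose and 2 fell (9.63% and 11.5% of all genes), with a median of 0.09. In CIS KO 2 rose and 4 fell (12.3% and 11.7% of all genes), and in TGFBRII KO none was called (0.0195%). The CIS KO median at 24 h was -0.31 beside 0.04 over all genes. In TGFBRII KO at 4 h, where 8.02% of all genes were called, 1 fell, Cd44, the hyaluronan receptor, from 201.9 to 119.0 CPM (log2 -0.76 ± 0.15, SE; adjusted p = 9.36e-04), whereas in CIS KO it rose at 4 h from 126.8 to 297.1 CPM (1.22 ± 0.13, SE; adjusted p = 2.04e-08). In WT Cd44 was at 196.6 and 308.8 CPM, and the TGFBRII KO response minus the WT response at 4 h was -1.38 ± 0.21 (log2, SE; adjusted p = 3.60e-05). Itgb7, the integrin chain of gut homing, rose in WT from 121.0 to 222.3 and 234.0 CPM, by 0.86 ± 0.19 and 0.95 ± 0.15 (log2, SE; adjusted p = 0.00281 and 6.42e-06), and its 24 h response was lower in TGFBRII KO by 1.02 ± 0.24 (SE; adjusted p = 0.00284). Itgb2, the chain shared by the leukocyte integrins, fell from 220.6 to 159.1 CPM in WT at 24 h and from 269.1 to 121.2 CPM in CIS KO. Its CIS KO response at 24 h was lower than that of WT by 0.69 ± 0.15 (log2, SE; adjusted p = 0.00653), and by 0.49 with the total count as a covariate (0.0777). Fut7, which builds selectin ligands, fell from 61.5 to 34.5 CPM in WT at 24 h (adjusted p = 7.11e-04) and from 79.1 to 41.8 CPM in CIS KO (adjusted p = 2.66e-04).

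Of 17 genes of G protein signalling and migration machinery, 17 passed the filter, 0 rose and 3 fell in WT at 24 h (median -0.01; 9.63% and 11.5% of all genes), and 1 rose and 3 fell in CIS KO (median -0.28; 12.3% and 11.7%). In TGFBRII KO 1 fell at 4 h (8.02% of all genes were called), Pik3cg, the catalytic chain of the PI3 kinase that G proteins activate, from 186.3 to 104.9 CPM (adjusted p = 2.85e-04). Pik3r5, an adaptor of the G protein-linked PI3 kinase, fell from 90.3 to 52.0 CPM in WT (adjusted p = 1.04e-04) and from 88.8 to 37.9 CPM in CIS KO (adjusted p = 1.51e-06). Of 11 transcription factors of egress and residency, 9 passed. Beside the same shares of all genes, at 24 h 0 rose and 1 fell in WT (Eomes, a factor of mature NK cells, by 0.32 ± 0.10, SE; adjusted p = 0.0132; -0.25 with an adjusted p of 0.0792 without replicate 3 of WT at 24 h). In CIS KO at 24 h 1 rose and 1 fell, and Foxo1, which drives Klf2 in lymphocytes, rose there at 4 h from 176.3 to 266.6 CPM (adjusted p = 3.50e-04). Unstimulated, at 4 h and at 24 h, Foxo1 was at 243.1, 284.3 and 239.2 CPM in WT. In TGFBRII KO it was at 229.6, 205.3 and 224 CPM. The CIS KO rise thus began below the unstimulated WT mean and ended below the WT mean at 4 h. None of the 8 ligands of the member receptors passed the count filter.

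**Figure D4:**
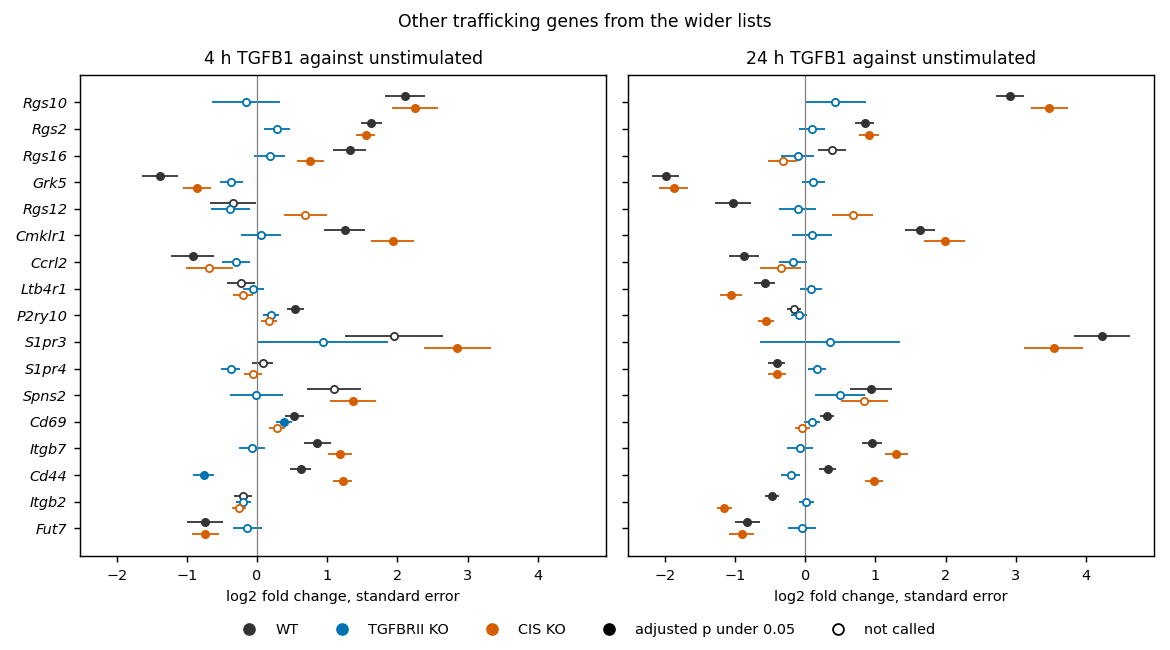
Log2 fold change (horizontal axis) with its standard error for 17 genes of the wider lists in each genotype, at 4 h and 24 h of TGFB1 against unstimulated cells; filled points have an adjusted p under 0.05. Rgs10 at 24 h is at 2.92 in WT and 3.48 in CIS KO, and Grk5 at -1.99 and -1.88, while the TGFBRII KO points at 24 h are all open.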

How the data were processed

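RNA of 31 libraries of sorted NK cells was sequenced after a directional library kit, per the labels' protocols. The authors deposited 1 table of raw counts per Entrez gene. Per the submitters' processing notes the build was mm10 and the tools included Subread with featureCounts, and also Trimmomatic, FastQC, SAMtools and Picard, without versions. How strand and duplicates were treated is not given in the sources used here. Any reads shared by near-identical or overlapping genes cannot be traced.

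Symbols, coordinates and promoter sequences came from RefSeq (GRCm38.p6), which matched 25275 of 27179 identifiers. Exon lengths are the merged exons of all transcripts of a gene in the GENCODE annotation, not in RefSeq. Counts were filtered by filterByExpr, scaled by TMM and tested by edgeR 4.0.16 (quasi-likelihood F-test, R 4.3.3) over 9 groups in 1 fit, since WT at 4 h had 2 libraries. Benjamini-Hochberg adjustment ran over 10275 genes, with a threshold of 0.05. Standard errors are the absolute log2 fold change over the square root of F. Response differences were interaction terms, and 4 direct comparisons of genotypes under TGFB1 were added after the values were seen. DESeq2 1.42.0 was an alternative. The fit was tested on simulated data. No 2 columns were identical.

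Members and lists were chosen with earlier results of these data known. Named genes were the members, the targeted genes, up to 4 genes per list with the smallest p among those called in WT at 4 h or 24 h or CIS KO at 24 h, and the 3 genes most like each member over group means. S1pr2, the cell type markers and the sex-linked genes were named besides. A few genes of the lists are not reported here by name.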

Additional observations from a re-analysis of the deposited data

Results flagged for a closer look

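S1pr1 in replicate 2 of unstimulated CIS KO (1.86 CPM) and in replicate 1 of CIS KO at 4 h (1.27 CPM) each lay far from its group, the gap to the next library being the whole range (a ratio of 1). In both cases this is 1 count against 0 in the other 3 libraries. The 38 sets examined were each 1 member in 1 of the 5 groups with 4 libraries, and 2 stood out in this way. The chance rate of about 1 in 20 does not hold for such counts. A single count against 0 in the rest always gives a ratio of 1.

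The 4 h response of Rgs1 differed between TGFBRII KO and WT (log2 difference -1 by edgeR's interaction test, adjusted p = 0.0405). At 4 h 2 of 2 WT and 3 of 3 TGFBRII KO libraries lay above all unstimulated libraries of their genotype, but the TGFBRII KO change itself was not called (0.56; adjusted p = 0.102). The call of the difference ended without any of 7 of 12 libraries, and with the total count as a covariate (-0.65; adjusted p = 0.0934). The shallowest of all libraries, replicate 1 of WT at 4 h, had the highest Rgs1 value, and its part in the difference was measured by leaving it out (-0.54; adjusted p = 0.387).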

How the results depend on the processing

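Of 17 called results of single members, none changed direction under 244 alternative values, and 29 of these values missed the threshold. Of 91 uncalled ones, 23 of 1402 values passed it, and 81 values that did not pass had the opposite sign to the main fit. For 152 called results of the other named genes, 280 of 2261 values missed the threshold and none changed direction. The number of members called changed as follows, and the cause was not tested unless given. For WT at 24 h it was 3 in place of 2 with library size alone, no count filter or the total count as covariate. For CIS KO it was 4 in place of 3 at 24 h with the covariate, and 2 in place of 3 at 4 h with only the groups compared. For CIS KO against WT unstimulated it was 1 in place of 0 with library size alone, no count filter or only the groups compared. For CIS KO against WT at 24 h it was 0 in place of 1 with library size alone, only the groups compared or DESeq2. For the TGFBRII KO response at 4 h it was 1 with no count filter and 3 with the total count as covariate or only the groups compared, in place of 0. For the TGFBRII KO and WT response difference at 4 h it was 0 in place of 1 with the covariate or only the groups compared. With only the groups compared it was 1 in place of 2 for WT at 24 h and 1 in place of 3 for CIS KO at 24 h, where Cxcr4 no longer passed the count filter and, in CIS KO, Cxcr3 missed the threshold (-0.82; adjusted p = 0.0742), and 0 in place of 1 for TGFBRII KO against WT at 4 h. Leaving out 1 library at a time gave 2 to 3 in CIS KO at 24 h, 1 to 2 in WT at 4 h, 1 to 3 in WT at 24 h, 0 to 1 in WT between 4 h and 24 h, 0 to 1 in CIS KO against WT unstimulated, 0 to 1 at 24 h, 0 to 2 and 0 to 1 for the TGFBRII KO and WT response differences at 4 h and 24 h, and 0 to 2 and 1 to 2 for TGFBRII KO against WT at 4 h and 24 h.

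Replicate numbers did not pair the libraries: same-numbered libraries deviated together (r over 0.1) in 9 of 29 pairs (-0.65 to 0.63). With the replicate block, 0 in place of 1 member was called for the TGFBRII KO and WT response difference at 4 h (Rgs1, -1.04; adjusted p = 0.0501) and for CIS KO against WT at 24 h (Cxcr3, -0.81; adjusted p = 0.0508).

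Counts of all genes called moved by over 1.5 times between settings. Ranges over the 7 other settings were 722 to 1510 for WT at 4 h (main 1226), 434 to 1360 for TGFBRII KO at 4 h (824), 0 to 206 at 24 h (2), 1421 to 2565 for CIS KO at 24 h (2469), 73 to 1197 for CIS KO against WT unstimulated (632), 10 to 173 for TGFBRII KO against WT unstimulated (15), 198 to 1028 for WT between 4 h and 24 h (778), 734 to 1736 for CIS KO between them (1587), 499 to 998 for the TGFBRII KO and WT response difference at 4 h (778), and 0 to 68 and 57 to 335 for those of CIS KO at 4 h (0) and 24 h (137). Under TGFB1 they were 741 to 1366 for TGFBRII KO against WT at 4 h (1212), and 12 to 81 and 69 to 603 for CIS KO against WT at 4 h (28) and 24 h (336). Leaving out 1 library gave 583 for WT at 4 h, 390 for WT between 4 h and 24 h and 514 for the TGFBRII KO and WT response difference at 4 h, each without replicate 1 of WT at 4 h. It gave 403, 459 and 447 for TGFBRII KO at 4 h (without replicate 1 or 2 of unstimulated TGFBRII KO or replicate 3 at 4 h), 0 to 3 for TGFBRII KO at 24 h, 1632 for CIS KO at 24 h (without replicate 2 at 24 h), 979 and 1023 for CIS KO between 4 h and 24 h (without replicate 2 or 4 at 4 h), 79 and 9 for TGFBRII KO against WT unstimulated (without replicate 1 of WT or of TGFBRII KO) and 57 to 1120 for CIS KO against WT unstimulated (lowest without replicate 3 of WT, highest without replicate 4 of CIS KO). For the CIS KO and WT response differences it gave 0 to 1 at 4 h and 76 to 212 at 24 h (without replicate 2 of CIS KO at 24 h and replicate 4 of unstimulated CIS KO), and 5 for CIS KO against WT at 4 h (without replicate 4 of WT at 4 h). With library size alone, 1193 genes rose and 520 fell in CIS KO between 4 h and 24 h (796 and 791 with TMM; the median of all genes moved from 0.02 to 0.12), 426 and 364 in WT between them (308 and 470), 701 and 530 in TGFBRII KO against WT at 4 h (578 and 634), 279 and 520 in CIS KO against WT unstimulated (328 and 304), and 491 and 287 in the TGFBRII KO and WT response difference at 4 h (407 and 371). Depth limits S1pr1, S1pr5, Klf2 and Cxcr4, at 0 to 22 counts per library.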
